A study of Mus musculus with 15 samples.

Results

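How far the response of mouse macrophages to granulocyte-macrophage colony-stimulating factor (GM-CSF) depends on the transcription factor STAT5 was examined in 10 of the 15 libraries of the series, chosen by their labels as the STAT5 fl/fl and STAT5 cKO libraries with DMEM or with recombinant mouse GM-CSF (rmGM-CSF). The quantity examined is an interaction, the change with GM-CSF in STAT5 cKO macrophages minus the change in STAT5 fl/fl macrophages, with the mouse as a block. The cells were bone marrow-derived macrophages (BMDMs) of BALB/c mice labelled as 6 wk old, kept for 2 h in serum-free DMEM alone or with 20 ng/mL rmGM-CSF. The mice were female according to the study's methods. STAT5 fl/fl mice carry the floxed Stat5 alleles without Cre and gave 4 libraries from 2 mice. A further replicate of this genotype was removed at quality control. STAT5 cKO mice carry the same floxed alleles together with Csf1r-iCre, a Cre recombinase under the Csf1r promoter that is active across the myeloid lineage and not in macrophages alone, and gave 6 libraries from 3 mice. The other 5 libraries hold BMDMs of the same 5 mice in 4T1 CM, culture medium taken from 4T1 cells, a mammary carcinoma line of the mouse. They entered the filter on low counts, the mouse terms and the estimate of the spread, but no contrast other than those where 4T1 CM is named.

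GM-CSF binds a receptor made of a ligand-specific alpha chain and a signaling beta chain, Csf2rb, to which the kinase JAK2 is attached. The active receptor phosphorylates STAT5, which enters the nucleus as a dimer and binds DNA at gamma-activated sites, and it also engages the MAPK, PI3K and NF-kB pathways. STAT5 is encoded by the neighboring genes Stat5a and Stat5b. In macrophages and their precursors GM-CSF supports survival, growth and an inflammatory and antigen-presenting state.

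Both deleted genes were near zero in every STAT5 cKO library. Stat5a had 637 and 719 counts with DMEM and 723 and 799 with GM-CSF in the STAT5 fl/fl libraries, and 0 to 3 in the STAT5 cKO libraries. Stat5b had 1442 and 1654 counts with DMEM and 977 and 1147 with GM-CSF in STAT5 fl/fl, and 0 to 4 in STAT5 cKO. Libraries of 1 group differed from each other by 4.42 to 5.9 in chi-square per degree of freedom, except that the DMEM library of the first STAT5 cKO mouse differed from the other two by 11.04 and 14.49. Without that mouse the interaction described here was called for 413 genes, in place of 526. The 10 libraries held 16016736 to 22877322 counts. By these totals, before normalization, 3 counts, taken as the floor of detection, correspond to 0.131 to 0.187 CPM. This floor covers counting error only. All 10 macrophage markers examined were detected, with a summed CPM of 25000 to 28000 in STAT5 fl/fl and 31400 to 38200 in STAT5 cKO libraries. Most of this sum came from Lyz2, and single markers went both ways. With DMEM, Lyz2, Cd14, Adgre1 and Mertk were higher in STAT5 cKO, and Csf1r overlapped between the genotypes. Mrc1 (180 to 196 CPM against 60.3 to 109 in STAT5 cKO), C1qa (182 to 277 against 140 to 145), Cd68, Fcgr1 and Itgam were lower there. Markers of neutrophils, B cells and erythroid cells summed to at most 1.16, 0.827 and 0.0639 CPM, and those of fibroblasts to 1.61 to 1.93 CPM with GM-CSF in STAT5 fl/fl and 4.73 to 7.92 in STAT5 cKO. The markers of T and NK cells summed to 9.15 to 10.4 CPM in STAT5 fl/fl and 5.8 to 7.35 in STAT5 cKO libraries, nearly all from Cd4, with Cd3g, Cd8a, Ncr1 and Trac at 0. Those of mast cells summed to 15.8 to 23.5 and 3.77 to 7.48 CPM, nearly all from Kit, with Cpa3, Fcer1a, Mcpt4 and Prss34 at 0.

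The summed level of the dendritic cell markers moved with the response that is examined here, through Itgax, which macrophages also express. It was 18.6 to 25.6 CPM with DMEM and 45 to 52.2 with GM-CSF in STAT5 fl/fl, and 21.5 to 29 and 31.3 to 39.5 in STAT5 cKO. Of the defining markers, Flt3, Xcr1, Clec9a and Ccr7 stayed under 0.8 CPM in every library, Siglech did not rise in STAT5 fl/fl, and Zbtb46 rose in both genotypes (log2 fold changes of 2.32 and 1.85) with no called interaction (adjusted p = 0.772). The megakaryocyte list, mostly Pf4, went from 4.5 to 4.8 CPM to 12 to 14.1 in STAT5 fl/fl and from 5.23 to 6.02 to 5.87 to 8.87 in STAT5 cKO. The part of these cells in the results was not tested, and in bulk RNA fewer cells of a type and less RNA per cell cannot be told apart.

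GM-CSF raised 2215 of the 13005 tested genes in STAT5 fl/fl BMDMs (17.0%) and lowered 1799 (13.8%), at a Benjamini-Hochberg adjusted p-value under 0.01 in edgeR's quasi-likelihood test. In STAT5 cKO BMDMs it raised 1862 (14.3%) and lowered 1452 (11.2%), and 2644 genes were called in the same direction in both genotypes. The interaction passed the same threshold for 526 genes (4.04%), with a response lower on the log2 scale in STAT5 cKO for 342 (2.63%) and higher for 184 (1.41%). At an unadjusted p-value under 0.05 there were 2109 such genes. With 1 of the 2 STAT5 fl/fl mice left out, the count was 299 or 216. Responses of single mice, taken as log2 differences between the libraries of a mouse, did not overlap between the genotypes for any of these 526 genes, which the same responses selected, and for 35.1% of all tested genes. The last called and the first uncalled gene by rank were Slc29a3 (interaction 0.39, adjusted p = 0.00994) and C3ar1 (interaction -0.37, adjusted p = 0.0101).

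Genes are called STAT5-dependent below where GM-CSF changed them in STAT5 fl/fl and the interaction was called in the opposite direction. Since both calls share the STAT5 fl/fl libraries, the class describes the data and is not a test of its own. There were 327 STAT5-dependent induced genes, or 14.8% of those induced in STAT5 fl/fl, and 138 STAT5-dependent repressed genes, or 7.67% of those repressed. Without 1 of the STAT5 fl/fl mice the counts were 207 and 58, without the other 167 and 33, and with the 10 libraries alone 231 repressed genes were STAT5-dependent. Of the induced genes with a log2 fold change of at least 1 in STAT5 fl/fl, 220 of 618 (35.6%) were STAT5-dependent, and of the repressed genes with a fall that large, 64 of 444 (14.4%). For changes of at least 2 on the log2 scale the numbers were 104 of 246 (42.3%) and 14 of 54 (25.9%). A small response leaves less room for a called interaction, so these shares do not compare strong with weak responses on equal terms. The plot of the responses in both genotypes shows most STAT5-dependent genes between the diagonal and the line of no change in STAT5 cKO, and some beyond that line.

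**Figure D1:**
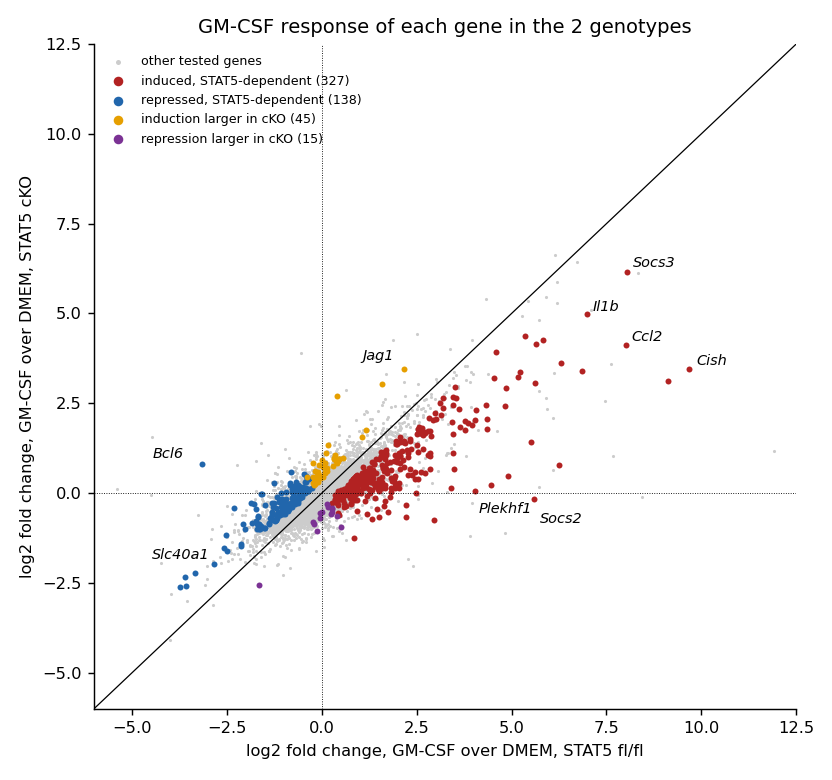
Each point is a tested gene, with its log2 fold change with GM-CSF over DMEM in STAT5 fl/fl on the horizontal axis and in STAT5 cKO on the vertical axis, and equal responses on the diagonal. Of the genes induced in STAT5 fl/fl, 327 lie below the diagonal with a called interaction, and of those repressed, 138 lie above it.

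Loss of the response was partial for many genes. The 327 induced genes had a median log2 fold change of 1.39 in STAT5 fl/fl and 0.40 in STAT5 cKO, and the latter was a median of 32.3% of the former (quartiles 8.56% and 51.8%, range -146% to 85.5%). In STAT5 cKO, 200 of them were still called higher with GM-CSF, 117 were not called and 10 were called lower. Of the 117 uncalled genes, 98 had a 95% interval of the STAT5 cKO response within a factor of 1.5 in either direction, so for most of them a remaining response larger than that is outside the interval. The 138 repressed genes had medians of -0.97 and -0.27, with a median of 25.6% kept (quartiles -2.49% and 49.8%). Of these, 73 were still called lower in STAT5 cKO, 55 were not called and 10 were called higher. The histogram of the share kept shows that 146 of the 327 induced genes and 67 of the 138 repressed genes kept less than 25%.

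**Figure D2:**
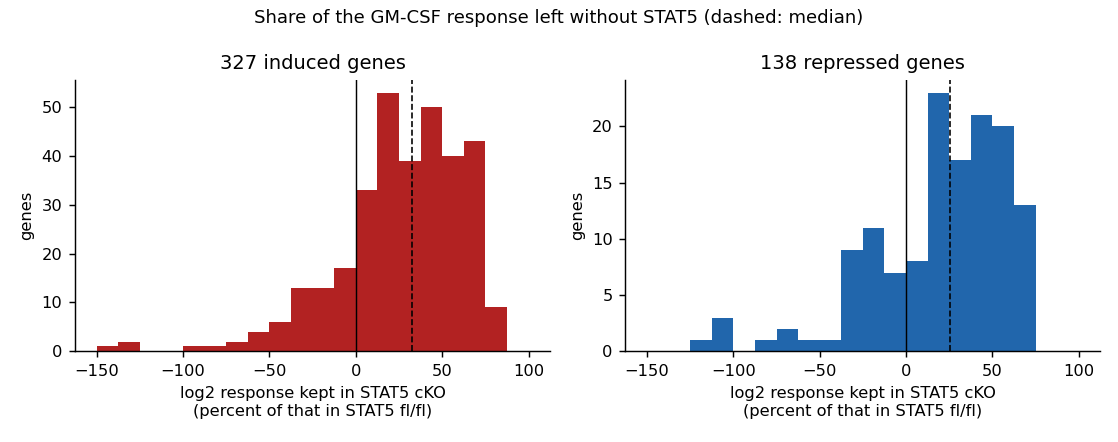
Histograms of the log2 response in STAT5 cKO as a percent of that in STAT5 fl/fl, for the 327 induced (left) and 138 repressed (right) STAT5-dependent genes, with genes counted on the vertical axis and the median dashed (32.3% and 25.6%). Values below 0 are genes whose change in STAT5 cKO had the other sign.

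Feedback inhibitors of the receptor held some of the largest differences. Cish, on chromosome 9 from 107296026 to 107302784 in GRCm38, encodes an inhibitor of cytokine receptors whose transcription STAT5 is known to drive. It had 0.273 and 0.0844 normalized CPM with DMEM and 150 and 147 with GM-CSF in STAT5 fl/fl, and 0.184, 0.218 and 0.206 followed by 2.26, 2.63 and 1.98 in STAT5 cKO. The DMEM libraries overlap between the genotypes, and with GM-CSF the STAT5 cKO libraries sit far below the STAT5 fl/fl ones yet above their own DMEM level. The log2 fold changes were 9.68 and 3.47, and the interaction was -6.21 (standard error 0.64, adjusted p = 3.58e-06). A stretch around the RefSeq start of Cish, which lies inside the gene as the counts' annotation gives it, is shown because it holds 2 copies, 2 bases apart, of the letters TTCNNNGAA of a gamma-activated site, marked in capitals. The stretch (RefSeq, GRCm38.p6, chr9:107296654-107296683, plus strand) lies in the annotated UTR.

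Cish: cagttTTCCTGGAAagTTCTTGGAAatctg

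Socs2, on chromosome 10 from 95385362 to 95417180, encodes an inhibitor of growth hormone and cytokine signaling. It had 0.819 and 0.38 CPM with DMEM and 28.9 and 28.4 with GM-CSF in STAT5 fl/fl, against 1.06, 0.784 and 0.618 with DMEM and 0.638, 0.848 and 0.639 with GM-CSF in STAT5 cKO. No STAT5 cKO library with GM-CSF reached the level of a STAT5 fl/fl library with GM-CSF, and the 2 treatments of STAT5 cKO overlap. The log2 fold change was 5.59 in STAT5 fl/fl and -0.17 in STAT5 cKO (interaction -5.76, standard error 0.50, adjusted p = 4.71e-07). Socs3, which encodes an inhibitor of JAK kinases at gp130-type receptors, went from 2.41 and 2.62 CPM to 681 and 654 in STAT5 fl/fl, and from 2.35, 2.18 and 2.68 to 163, 181 and 170 in STAT5 cKO. Its response was lower without STAT5 and still large, with log2 fold changes of 8.05 and 6.15 (interaction -1.9, standard error 0.16, adjusted p = 3.23e-07). Socs1, a further inhibitor of JAK kinases, did not pass the test of the interaction (2.06 and 1.20 on the log2 scale, adjusted p = 0.28). Of the 15 tested feedback inhibitors, 9 rose and 2 fell in STAT5 fl/fl, and 3 had a called interaction. By the measure of a kept response defined in the next paragraph, 4 kept theirs, Socs6 (-1.37 and -1.08) and, with responses of under 0.5 on the log2 scale, Socs5, Socs7 and Sh2b3.

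A response is called kept where it passed in both genotypes in the same direction and the 95% interval of the interaction lay within a factor of 1.5 either way, or 0.585 on the log2 scale. For a response smaller than that factor the measure leaves room for a large proportional loss. By it the induction, among others, of Jak2 was kept (log2 fold changes of 1.42 in STAT5 fl/fl and 1.23 in STAT5 cKO). Jak1 (0.31 and 0.25) and the Src family kinase Lyn (0.51 and 0.57) also met it, with responses under the factor. So did the phosphatase Ptpn6 (0.37 and 0.19), whose response in STAT5 cKO was 52.2% of that in STAT5 fl/fl. The beta chain of the receptor differed. Csf2rb, on chromosome 15 from 78325752 to 78353847, had 618 and 617 CPM with DMEM and 1661 and 1681 with GM-CSF in STAT5 fl/fl, against 559, 584 and 623 with DMEM and 690, 689 and 782 with GM-CSF in STAT5 cKO. Each STAT5 cKO library with GM-CSF was above each with DMEM, and all 3 were below the STAT5 fl/fl libraries with GM-CSF. The log2 fold change was 1.44 in STAT5 fl/fl and 0.29 in STAT5 cKO (interaction -1.15, standard error 0.08, adjusted p = 5.59e-08). Csf2rb2, the neighboring chain that serves the IL-3 receptor of the mouse, had log2 fold changes of 0.76 and 0.15 (interaction -0.61, adjusted p = 1.63e-04), but the sequences of these 2 genes are so alike that their reads may be split between them. Of the 14 genes of the receptor and its kinases, 7 rose and 1 fell in STAT5 fl/fl, 2 had a lower response in STAT5 cKO and none a higher one, and 5 kept theirs.

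Among the other STATs, Stat3 (log2 fold changes of 1.14 and 0.96) and Stat6 (0.34 and 0.27) met the measure of a kept response, the latter with a response under the factor. No interaction was called for the 7 family members, of which the deleted Stat5a and Stat5b could not show one, against 4.04% called over all tested genes. The median interaction over the 14 receptor and kinase genes was -0.04 and that over the 15 feedback inhibitors -0.11, against 0.001 over all tested genes.

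The 10 STAT5-dependent induced genes with the smallest interaction p-values were Sav1, Cd274, Plekhf1, Cdkn1a, Il4ra, Hnrnpll, Gpr146, Tiam1, Stk38l and Dcun1d3. Cd274 encodes PD-L1, the ligand of the T cell checkpoint receptor PD-1, and lies on chromosome 19 from 29367455 to 29388095. It had 98.1 and 82.2 CPM with DMEM and 366 and 378 with GM-CSF in STAT5 fl/fl, against 71.2, 67.5 and 66.7 with DMEM and 75.3, 82.6 and 90.4 with GM-CSF in STAT5 cKO. With GM-CSF the STAT5 cKO libraries lay near or below the level of STAT5 fl/fl libraries with DMEM. Its log2 fold changes were 2.05 and 0.27 (interaction -1.78, standard error 0.11, adjusted p = 1.24e-08), and it was already lower in STAT5 cKO with DMEM (-0.40, adjusted p = 0.00539). Cd80, a costimulatory ligand of T cells, was the other STAT5-dependent gene of the 11 tested costimulatory and checkpoint ligands (1.63 and 0.62, adjusted p = 0.00189). Cd83 kept its induction (2.06 and 1.88). Cd40 (3.80 and 3.15) and Cd86 (1.04 and 1.41) had no called interaction.

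Plekhf1, whose product binds phosphoinositides on endosomes and lysosomes, had 2.64 and 2.24 CPM with DMEM and 41.4 and 38.9 with GM-CSF in STAT5 fl/fl. In STAT5 cKO it had 2.12, 3 and 2.39 CPM with DMEM and 2.5, 2.28 and 3.13 with GM-CSF. The STAT5 cKO libraries of both treatments overlap each other and the STAT5 fl/fl libraries with DMEM, with log2 fold changes of 4.04 and 0.05 (interaction -3.99, standard error 0.24). Sav1, a scaffold of the Hippo pathway, rose from 66.6 and 64.6 CPM to 231 and 239 in STAT5 fl/fl and from 66.8, 63.7 and 69 to 81.9, 85.2 and 85.8 in STAT5 cKO. Its groups do not overlap with GM-CSF and do with DMEM, and the log2 fold changes were 1.84 and 0.34 (interaction -1.5, standard error 0.08, adjusted p = 1.08e-08). Stk38l, a kinase of the NDR family related to Hippo signaling, was changed by 1.94 on the log2 scale in STAT5 fl/fl and 0.13 in STAT5 cKO. For Hnrnpll, which regulates splicing in lymphocytes, the values were 1.82 and 0.15, for Tiam1, an exchange factor of the GTPase RAC, 2.63 and 0.58, and for Dcun1d3, which takes part in the neddylation of cullins, 2.55 and 0.39. Of these 4 genes, Tiam1 and Dcun1d3 still rose in STAT5 cKO.

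Cdkn1a encodes the cell cycle inhibitor p21, and for it the genotypes also differed with DMEM, as for Cd274 but with the STAT5 cKO libraries higher. It had 79.5 and 78.8 CPM with DMEM and 829 and 905 with GM-CSF in STAT5 fl/fl, against 147, 152 and 159 with DMEM and 498, 466 and 466 with GM-CSF in STAT5 cKO. The STAT5 cKO libraries were above the STAT5 fl/fl libraries with DMEM (0.95 on the log2 scale, adjusted p = 1.6e-05) and below them with GM-CSF, and the interaction was -1.81 (standard error 0.11, adjusted p = 1.24e-08). Il4ra, the IL-4 receptor alpha chain, had log2 fold changes of 1.92 and 0.47, from 54 and 55.9 to 208 and 209 CPM in STAT5 fl/fl and from 49.4, 58 and 55 to 71.5, 74.5 and 78.7 in STAT5 cKO.

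Genotypes also differed with DMEM for some of the classes. Among all tested genes, 186 were lower (1.43%) and 120 higher (0.923%) in STAT5 cKO with DMEM. Of the 327 STAT5-dependent induced genes, 11 were lower and 12 higher with DMEM, with a median difference of 0.06 on the log2 scale. Of the 138 repressed ones, 19 were lower and 4 higher (median -0.18), so that part of these started from a lower level in STAT5 cKO. Kdr, which encodes VEGF receptor 2, is such a gene. It fell from 126 and 117 CPM to 62.5 and 53.5 in STAT5 fl/fl, and stood at 58.7, 65.3 and 64.1 with DMEM and 55.9, 65.5 and 69.5 with GM-CSF in STAT5 cKO. All 6 STAT5 cKO values lie near the STAT5 fl/fl level with GM-CSF, and the genotypes differed by -0.95 with DMEM (adjusted p = 6.55e-05).

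The repressed gene with the smallest interaction p-value was Bcl6, which encodes a transcriptional repressor known to compete with STAT factors for their sites. It lies on chromosome 16 from 23965052 to 23988852, minus strand. With DMEM it had 139 and 153 CPM in STAT5 fl/fl and 153, 158 and 144 in STAT5 cKO, and with GM-CSF 16.5 in both STAT5 fl/fl libraries and 264, 265 and 276 in STAT5 cKO. The genotypes overlap with DMEM, and with GM-CSF they move in opposite directions in every mouse. The log2 fold changes were -3.15 and 0.83, both called, and the interaction was 3.97 (standard error 0.11, adjusted p = 9.62e-14). RefSeq gives Bcl6 more than 1 start, and the windows upstream of a start inside the gene and of the start at its 5′ end are shown because they hold 3 and 1 copies of TTCNNNGAA, in capitals. They are 250 bases each of GRCm38.p6, minus strand, at chr16:23981284-23981533 and chr16:23988853-23989102, of which the first is intronic. The copies begin at -168, -122 and -88 in the first and at -118 in the other, counted from the start base as 0.

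Bcl6, start inside the gene: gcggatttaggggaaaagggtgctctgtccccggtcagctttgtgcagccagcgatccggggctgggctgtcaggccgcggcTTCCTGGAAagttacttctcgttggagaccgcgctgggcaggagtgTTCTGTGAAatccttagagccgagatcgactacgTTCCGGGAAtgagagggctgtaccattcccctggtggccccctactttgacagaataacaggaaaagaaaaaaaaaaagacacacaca

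Bcl6, start at the 5′ end: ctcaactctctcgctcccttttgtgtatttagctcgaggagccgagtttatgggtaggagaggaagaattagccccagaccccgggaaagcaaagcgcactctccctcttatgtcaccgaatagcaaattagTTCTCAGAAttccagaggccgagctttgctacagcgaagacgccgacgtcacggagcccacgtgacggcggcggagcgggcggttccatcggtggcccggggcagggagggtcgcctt

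Kcnj2, an inward rectifier potassium channel, fell from 145 and 162 CPM to 46.8 and 55.9 in STAT5 fl/fl, and had 205, 211 and 191 followed by 189, 210 and 199 in STAT5 cKO. The 2 treatments of STAT5 cKO overlap, with log2 fold changes of -1.58 and -0.02 (interaction 1.56, standard error 0.10, adjusted p = 1.24e-08), and the gene was higher in STAT5 cKO with DMEM (0.40, adjusted p = 0.00458).

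The following repressed genes had smaller differences. Slc40a1, which encodes the iron exporter ferroportin, fell by 2.57 on the log2 scale in STAT5 fl/fl and by 1.52 in STAT5 cKO, from a DMEM level that was lower in STAT5 cKO (-0.82, adjusted p = 2.48e-04). Rgs2, a regulator of G protein signaling, fell in both genotypes (-1.82 and -0.83). Mylip, the ubiquitin ligase that marks the LDL receptor for degradation (-1.26 and -0.26), and Nfatc2, a transcription factor activated by calcium (-1.12 and -0.24), also fell in both. Gramd1b, which carries sterol to the endoplasmic reticulum, fell in STAT5 fl/fl (-1.13) and was not called in STAT5 cKO (-0.16). For Rab7b, a GTPase of late endosomes, a fall of 0.85 in STAT5 fl/fl stood against a called rise of 0.22 in STAT5 cKO, where its DMEM level was lower (-0.32, adjusted p = 0.00835). The plot of single libraries shows Bcl6, Kcnj2 and 6 further genes.

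**Figure D3:**
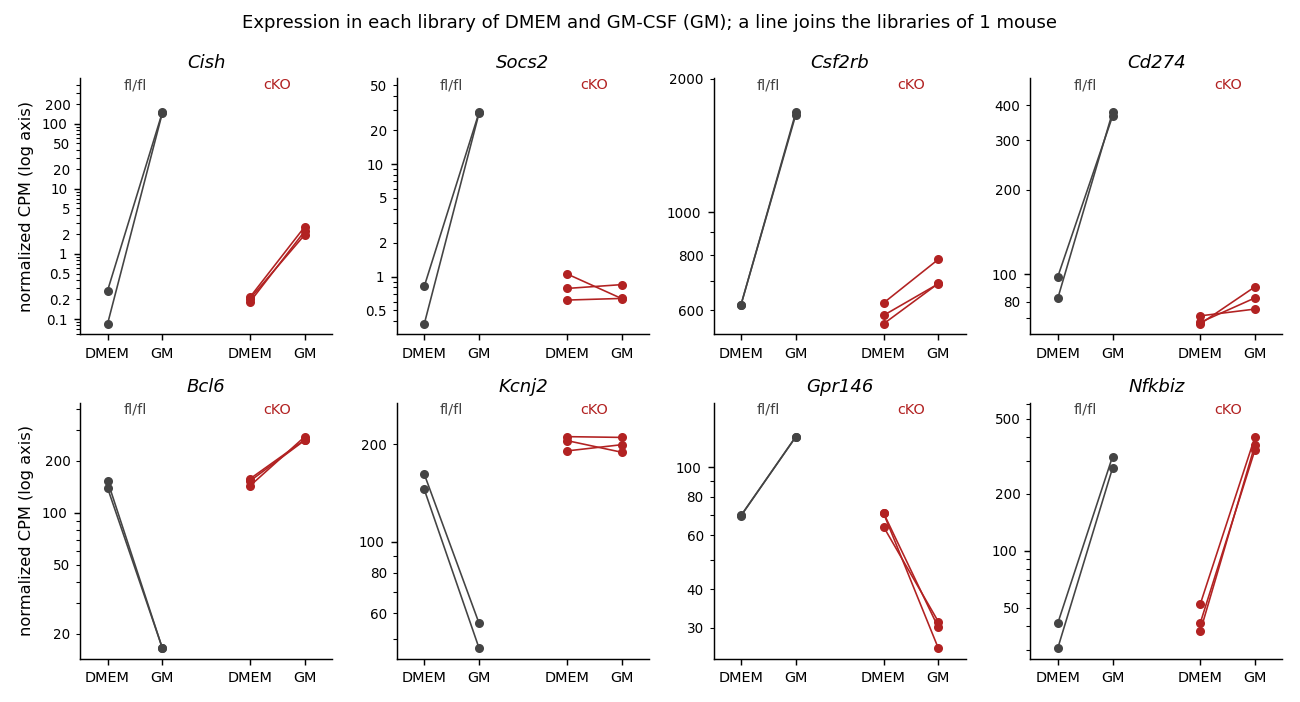
Normalized CPM on log axes in each DMEM and GM-CSF (GM) library of 2 STAT5 fl/fl mice (dark gray) and 3 STAT5 cKO mice (red), with a line for each mouse. Cish, Socs2, Csf2rb and Cd274 rise less or not at all in STAT5 cKO, Bcl6 and Gpr146 move in opposite directions in the genotypes, Kcnj2 falls in STAT5 fl/fl alone by the calls, and Nfkbiz rises in all 5 mice.

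Opposite calls in the 2 genotypes were made for 20 genes, 10 of them induced and 10 repressed in STAT5 fl/fl. Gpr146, an orphan G protein-coupled receptor on chromosome 5 from 139377697 to 139396415, had 69.4 and 69.6 CPM with DMEM and 126 in both STAT5 fl/fl libraries with GM-CSF. In STAT5 cKO it had 70.9, 70.8 and 64 with DMEM and 30, 25.7 and 31.4 with GM-CSF. Starting from like levels, the 2 STAT5 fl/fl mice rose and all 3 STAT5 cKO mice fell, by log2 fold changes of 0.85 and -1.25 (interaction -2.1, standard error 0.13, adjusted p = 1.63e-08). AU022793 (1.20 and -0.59) and Fzd7, a Wnt receptor (0.77 and -0.31), also rose in STAT5 fl/fl and fell in STAT5 cKO. So did Abcg1, a cholesterol exporter (0.59 and -0.28), whereas Vegfa, a growth factor of blood vessels (-0.40 and 0.32), and Pfkfb3, an activator of glycolysis (-0.32 and 0.39), fell in STAT5 fl/fl and rose in STAT5 cKO.

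A response that was called in STAT5 cKO and was larger than, or absent from the calls of, STAT5 fl/fl was found for 45 inductions and 15 repressions. Jag1, a Notch ligand on chromosome 2 from 137081456 to 137116644, had the smallest interaction p-value of the 45. It had 17.8 CPM in both STAT5 fl/fl libraries with DMEM and 88.1 and 73.6 with GM-CSF, against 16.8, 18.8 and 15.2 with DMEM and 169, 214 and 171 with GM-CSF in STAT5 cKO. It rose in all 5 mice and more in each STAT5 cKO mouse, by 2.17 and 3.44 on the log2 scale (interaction 1.27, standard error 0.11, adjusted p = 5.06e-07). Rgs1, a regulator of G protein signaling, also rose in both (0.33 and 0.99). Sipa1l2 (-0.22 and 0.85), Lpin2, a phosphatidate phosphatase (0.09 and 0.84), and Ggta1, a galactosyltransferase (-0.18 and 0.41), rose in STAT5 cKO and were not called in STAT5 fl/fl. In the other direction were Pla2g15, a lysosomal phospholipase (0.26 and -0.54), the ubiquitin ligase Rnf180 (0.26 and -0.44) and Rab11fip5, an effector of RAB11 (0.16 and -0.38). March1, the ubiquitin ligase that removes MHC class II from the cell surface (-0.14 and -1.06), also fell in STAT5 cKO alone by the calls. So did Irf4, a transcription factor of dendritic cells and macrophages (0.39 and -0.63). With DMEM, 3 of the 15 repressions were lower in STAT5 cKO and 0 higher, and 2 of the 45 inductions were lower and 4 higher. Ggta1 (-0.28, adjusted p = 0.00594) and Rnf180 (-0.30, adjusted p = 0.00988) were lower in STAT5 cKO with DMEM. Irf4 was already lower in STAT5 cKO with DMEM (-1.03, adjusted p = 1.09e-04), and lost its call of the interaction without either STAT5 fl/fl mouse, at adjusted p = 0.0147 and 0.0118. March1 lost its call without the first of these mice (adjusted p = 0.0106) and Rab11fip5 without the second (adjusted p = 0.0111).

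Many responses remained in STAT5 cKO. By the measure of a kept response, 1043 induced genes, or 47.1% of those called in STAT5 fl/fl, and 662 repressed genes (36.8%) kept theirs. Their median log2 fold changes were 0.52 in STAT5 fl/fl and 0.40 in STAT5 cKO for the induced genes, and -0.56 and -0.43 for the repressed. These medians are under the factor of the measure, and 641 of the 1043 and 373 of the 662 genes had a STAT5 fl/fl response smaller than it. The response in STAT5 cKO was 39.6% to 222% of that in STAT5 fl/fl for the induced (median 81.2%) and 37.8% to 219% for the repressed genes (median 78.1%). For 336 of the induced and 87 of the repressed genes the interval excluded a loss of 50% of the log2 response. A further 847 induced and 1002 repressed genes were neither STAT5-dependent nor shown to be kept, and for these the data give neither call. The STAT5-dependent and kept classes overlap slightly. Among STAT5-dependent genes, 3 induced and 4 repressed ones had an interaction interval within the factor. Those of them called in the same direction in both genotypes count in both classes. The kept induced genes with the largest changes were Pde4b (3.78 and 3.55), a phosphodiesterase of cyclic AMP, the inflammasome sensor Nlrp3 (3.45 and 3.21), and the NF-kB feedback genes Nfkbie (3.36 and 3.0), Nfkbiz (3.04 and 3.09) and Tnfaip3 (3.01 and 3.18). Nfkbiz had 30.5 and 41.4 CPM with DMEM and 274 and 315 with GM-CSF in STAT5 fl/fl, and 52.2, 37.5 and 41.5 followed by 402, 365 and 343 in STAT5 cKO. No GM-CSF library of either genotype overlaps a DMEM library, and the interval of its interaction runs from -0.23 to 0.34. The kept repressed genes with the largest changes were the ubiquitin ligases Rnf144b (-1.78 and -1.77) and Trim65 (-1.56 and -1.31), the mitochondrial protease Atp23 (-1.59 and -1.77), Fam78a (-1.44 and -1.17) and Cxcr4, the receptor of CXCL12 (-1.39 and -1.04).

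Genes grouped by role are described here by their counts, without a test of the groups. Over all tested genes, the shares to read them against are 17.0% raised and 13.8% lowered in STAT5 fl/fl, 14.3% and 11.2% in STAT5 cKO, and an interaction called lower in STAT5 cKO for 2.63% and higher for 1.41%. Of the 19 tested chemokines, 16 rose in STAT5 fl/fl and 16 in STAT5 cKO, and 9 had a lower response in STAT5 cKO. Ccl2, which recruits monocytes, lies on chromosome 11 from 82035571 to 82037453 and had 0.319 and 0.717 CPM with DMEM and 114 and 159 with GM-CSF in STAT5 fl/fl. In STAT5 cKO it had 0.966, 0.392 and 0.371 with DMEM and 9.62, 8.7 and 11.9 with GM-CSF. It rose in every mouse, and with GM-CSF the STAT5 cKO libraries lay well below the STAT5 fl/fl libraries, with log2 fold changes of 8.02 and 4.13 (interaction -3.88, standard error 0.50, adjusted p = 5.09e-05). The neighboring monocyte chemokine Ccl7 had 2 and 3 counts with DMEM and 818 and 1441 with GM-CSF in STAT5 fl/fl, at least 343-fold more against the floor of 3 counts per library. In STAT5 cKO it had 4, 4 and 8 counts followed by 34, 46 and 40 (adjusted p = 2.66e-06). Ccl12 of the same cluster had 3 and 6 counts followed by 290 and 532, against 3, 1 and 3 followed by 26, 22 and 18 (adjusted p = 0.00574).

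The macrophage inflammatory chemokines Ccl3 (3.44 and 1.98 on the log2 scale), Ccl4 (3.65 and 1.84), Ccl6 (1.83 and 0.43) and Ccl9 (2.1 and 1.17), the T cell chemokine Ccl22 (4.37 and 1.79) and the interferon-inducible Cxcl10 (4.06 and 2.32) also rose less in STAT5 cKO. The neutrophil chemokines Cxcl1 (6.13 and 6.63) and Cxcl2 (6.18 and 5.87) had no called interaction, with intervals of -0.12 to 1.11 and -0.72 to 0.09. Of the chemokines only Cxcl16 (0.80 and 0.64) met the measure of a kept response. Ccl17, a chemokine for T cells on chromosome 8 from 94810453 to 94812036, had 0 counts in both STAT5 fl/fl libraries with DMEM and 396 and 406 with GM-CSF, at least 124-fold more. Each STAT5 cKO library had 0 or 1 counts under both treatments, and with so few counts its interaction did not pass (adjusted p = 0.0448). Its upstream window (GRCm38.p6, chr8:94810203-94810452, plus strand) is shown because it holds 1 copy of TTCNNNGAA, at -99.

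Ccl17: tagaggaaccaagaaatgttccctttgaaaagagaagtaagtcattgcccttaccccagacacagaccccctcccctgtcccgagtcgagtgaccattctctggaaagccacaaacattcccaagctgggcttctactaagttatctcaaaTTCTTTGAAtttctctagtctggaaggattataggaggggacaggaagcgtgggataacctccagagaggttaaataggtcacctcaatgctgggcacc

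The plot of the lists sets the chemokines beside the other groups. The median interaction of the chemokines was -1.46 on the log2 scale, or -1.20 with genes at the floor set to their bound, against 0.001 over all tested genes.

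**Figure D4:**
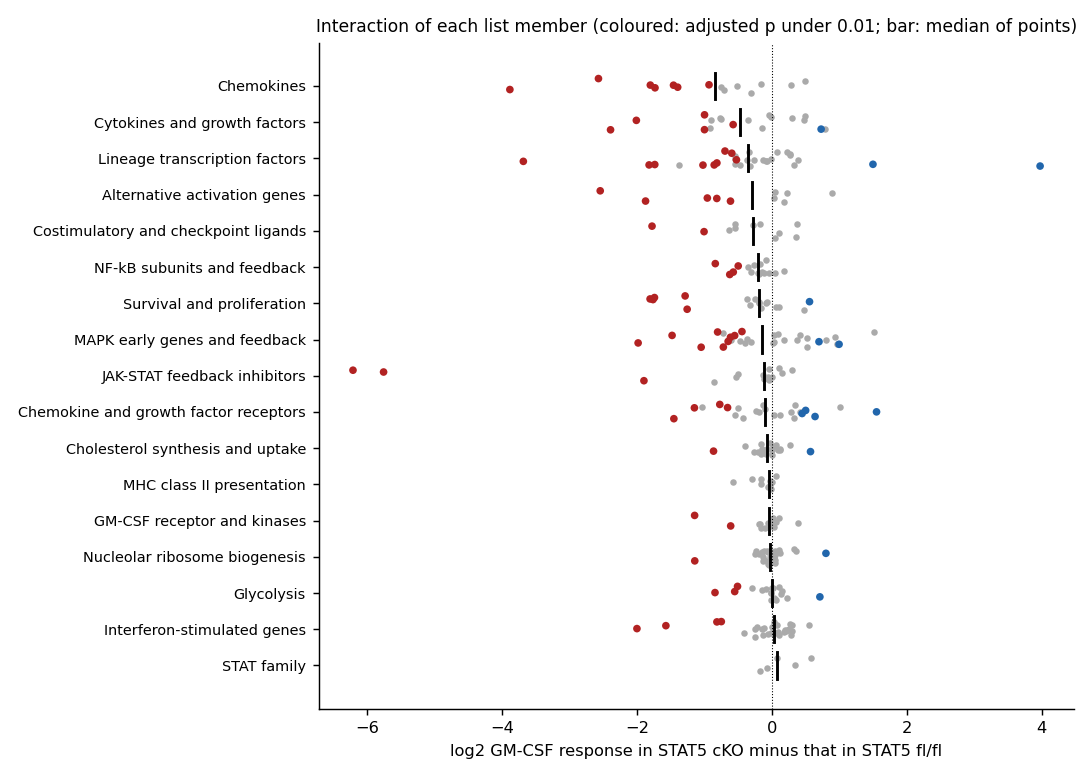
Interaction (log2 response in STAT5 cKO minus that in STAT5 fl/fl) of the members of 17 gene lists, without genes at the floor of detection in a group, red where called lower and blue where called higher in STAT5 cKO, with bars at the median of the points. Chemokines reach -3.88, the feedback inhibitors Cish and Socs2 lie at -6.21 and -5.76, and Bcl6 lies at 3.97.

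Among 19 cytokines and growth factors, 13 rose and 2 fell in STAT5 fl/fl, 5 had a lower and 1 a higher response in STAT5 cKO, and 2 kept theirs. Il1b, the inflammatory cytokine IL-1 beta, had 6.74 and 10.4 CPM with DMEM and 923 and 1239 with GM-CSF in STAT5 fl/fl. It had 12.4, 9.1 and 14.8 followed by 392, 389 and 356 in STAT5 cKO. All mice responded strongly, and the STAT5 cKO libraries with GM-CSF lie below both STAT5 fl/fl libraries (6.98 and 4.97, interaction -2.01, adjusted p = 4.35e-06). Its antagonist Il1rn (2.70 and 1.69), the EGF receptor ligand Hbegf (4.83 and 2.43), Pdgfa (1.98 and 0.98) and Tgfb1 (0.84 and 0.27) were STAT5-dependent. Tnf, the cytokine TNF, had no called interaction (5.28 and 4.92, interval -0.69 to -0.03), and the macrophage growth factor Csf1 kept its induction (2.23 and 2.09).

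Of 23 chemokine, cytokine and growth factor receptors, 12 rose and 4 fell in STAT5 fl/fl, 4 had a lower and 4 a higher response in STAT5 cKO, and 5 kept theirs. Besides Il4ra, the chemokine receptors Ccr1 (3.45 and 2.67) and Ccr2 (0.67 and 0.02) were among the STAT5-dependent inductions. Il7r (-0.55 and 0.09) and the IL-1 receptor Il1r1 (-1.25 and 0.30) were STAT5-dependent repressions. Cx3cr1, the fractalkine receptor (-0.23 and 0.27), and Tnfrsf1b, TNF receptor 2 (0.44 and 0.88), rose more in STAT5 cKO, and Cx3cr1 was already higher there with DMEM (1.06, adjusted p = 2.20e-04).

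Of 30 transcription factors of myeloid lineages, 18 rose and 5 fell in STAT5 fl/fl, 9 had a lower and 2 a higher response in STAT5 cKO, and 5 kept theirs. Batf3, a factor of conventional dendritic cells, had 0.728 and 0.97 CPM with DMEM and 6.05 and 7.14 with GM-CSF in STAT5 fl/fl, against 0.782, 0.566 and 0.906 with DMEM and 0.393, 0.625 and 0.32 with GM-CSF in STAT5 cKO. Only the STAT5 fl/fl libraries with GM-CSF stand apart, and the interaction was -3.69 (standard error 0.50, adjusted p = 9.31e-05). Nfil3 (1.93 and 0.20), Id1 (2.84 and 1.02), Id2 (0.80 and 0.11), Irf5 (1.6 and 0.78), Bhlhe40 (0.82 and 0.23) and Rbpj, the DNA-binding partner of Notch (2.32 and 1.47), were also STAT5-dependent inductions. Irf8 was not called in STAT5 fl/fl (0.01) and fell in STAT5 cKO (-0.52). Spi1, which encodes the myeloid factor PU.1 (0.71 and 0.45), Irf1 (1.97 and 1.65) and Prdm1 (2.02 and 1.95) met the measure of a kept response. The response of Spi1 in STAT5 cKO was 62.6% of that in STAT5 fl/fl. Intervals of the interaction lay below 0 for Spi1 (-0.47 to -0.07) and Irf1 (-0.54 to -0.10).

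Next come the pathways that GM-CSF engages beside STAT5. All 16 NF-kB subunits and feedback genes rose in both genotypes, and 12 kept their response. The 4 others were STAT5-dependent, the subunits Nfkb2 (2.06 and 1.44), Rel (1.98 and 1.40) and Relb (1.95 and 1.44) and the coactivator Bcl3 (3.20 and 2.36). The median response of the list was 2.02 in STAT5 fl/fl and 1.44 in STAT5 cKO, and its median interaction was -0.20. Of the kept genes, Nfkb1 (-0.47 to -0.07), Traf1 (-0.54 to -0.10) and Nfkbie (-0.57 to -0.14) had intervals of the interaction below 0. For the other kept genes the interval included 0. Of 31 early genes and feedback genes of the MAPK pathway, 20 rose and 1 fell in STAT5 fl/fl and 24 rose and 1 fell in STAT5 cKO. A lower response in STAT5 cKO was called for 9 of them, among which were Ier3 (4.03 and 2.05), Egr2 (2.67 and 1.62), Fosl2 (1.90 and 0.42), Junb (1.98 and 1.36) and Spred1 (2.57 and 1.85), and a higher one for 2. The latter were Fos (0.12 and 1.11) and the ERK phosphatase Dusp6 (0.36 and 1.06), which rose in STAT5 cKO and were not called in STAT5 fl/fl. Fos was already higher in STAT5 cKO with DMEM (0.79, adjusted p = 6.79e-04). Dusp1, Dusp4, Spred2 and Etv5 kept their induction.

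Of 18 genes of survival and proliferation, 11 rose and 3 fell in STAT5 fl/fl, 5 had a lower and 1 a higher response in STAT5 cKO, and 5 kept theirs. Pim1, a kinase that promotes survival, went from 48.1 and 41.1 CPM to 549 and 536 in STAT5 fl/fl and from 53.1, 50.3 and 49.8 to 270, 246 and 264 in STAT5 cKO. It rose in every mouse, to lower levels in STAT5 cKO (3.6 and 2.35, interaction -1.26, adjusted p = 2.96e-06). Ccnd2, cyclin D2, was also STAT5-dependent (2.88 and 1.59). So were the anti-apoptotic paralogs Bcl2a1b (2.86 and 1.12) and Bcl2a1d (3.78 and 2.01), whose reads may be split between near-identical copies. The survival genes Bcl2l1 (1.51 and 1.26) and Mcl1 (0.56 and 0.49) kept their induction, and the pro-apoptotic Bcl2l11 rose in STAT5 cKO alone by the calls (-0.14 and 0.42).

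Of 11 genes of alternative activation, 6 rose in STAT5 fl/fl and 2 in STAT5 cKO, and 5 were STAT5-dependent. These were the C-type lectins Mrc1 (0.77 and 0.15), Clec7a (1.0 and 0.05), Clec10a (2.02 and 0.15) and Mgl2 (2.21 and -0.33) and the scavenger receptor Msr1 (2.31 and 1.5), of which Msr1 alone was still called in STAT5 cKO. Mrc1 was lower in STAT5 cKO already with DMEM (-1.22, adjusted p = 0.00187). Tgm2 kept its induction (1.63 and 1.65), and Arg1 was at or under the floor in all 10 libraries. Of the 30 interferon-stimulated genes, 10 rose and 1 fell in STAT5 fl/fl, and the 4 with a lower response in STAT5 cKO were all guanylate-binding proteins, Gbp2 (2.54 and 1.79), Gbp3 (2.61 and 1.79), Gbp5 (5.84 and 4.26) and Gbp7 (3.77 and 1.77), paralogs that may share reads. The median interaction of that list was 0.03. Of the 10 genes of MHC class II presentation, 3 rose in STAT5 fl/fl and 2 in STAT5 cKO, and none had a called interaction, which with 4.04% called over all tested genes says little for a list of this size. Their median interaction was -0.05.

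Metabolic lists held 2 to 4 called interactions each, against 4.04% over all tested genes. In glycolysis, hexokinase Hk2 (0.82 and -0.02), the glucose transporter Slc2a1 (2.06 and 1.55) and Pfkp (1.24 and 0.69) rose less in STAT5 cKO, and with Pfkfb3 these were 4 of 20. In cholesterol synthesis and transport, 10 of 21 genes rose in each genotype and 7 kept their response, with Abcg1 and Abca1 (-0.18 and 0.39) as the 2 called interactions, both exporters. Of 30 genes of ribosome biogenesis, 14 rose and 2 fell in STAT5 fl/fl and 12 kept their response. Heatr1 (1.59 and 0.45) and Dkc1 (-0.78 and 0.02) were the 2 with a called interaction, lower and higher in STAT5 cKO, respectively.

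Some of the largest interactions lay outside these lists, and the following genes were chosen after their values were seen. Pgf, placental growth factor, had 0.364 and 0.464 CPM with DMEM and 12.9 and 12.4 with GM-CSF in STAT5 fl/fl, against 0.506, 0.827 and 0.453 followed by 0.736, 0.669 and 1.15 in STAT5 cKO (interaction -4.42, standard error 0.47, adjusted p = 5.54e-06). Eps8, a regulator of actin, went from 18.8 and 21.6 to 212 and 239 CPM in STAT5 fl/fl and from 12.1, 8.06 and 7.91 to 17.8, 13.1 and 13.7 in STAT5 cKO (interaction -2.81, standard error 0.19, adjusted p = 2.88e-08). For both genes the STAT5 fl/fl libraries with GM-CSF stand above all 8 others. Eps8 was lower in STAT5 cKO with DMEM as well (-1.11, adjusted p = 8.81e-04).

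The letters TTCNNNGAA, the core of a gamma-activated site, read the same on both strands and were looked for in windows of 300 bases, 250 before to 50 after each RefSeq start. They were present in 8.3% of all 32851 windows and in 6.85% of the 11933 windows of tested genes, of which 9346 matched by symbol. The share was 7.84% for the STAT5-dependent induced genes (28 of 357 windows, 259 of 327 genes matched) and 10.3% for the repressed (15 of 145 windows, 103 of 138 genes). It was 6.18% for induced and 5.87% for repressed genes that kept their response. Windows with more than 1 copy made up 1.4% for the STAT5-dependent induced genes (5 of 357) and 0.69% for the repressed (1 of 145), against 0.411% over tested genes and 0.375% and 0.14% for induced and repressed genes that kept their response. These shares were not tested, and a match in these letters is a description and not a bound site. STAT5-dependent genes with a match besides Cish and Bcl6 include Gpr146 (GRCm38.p6, chr5:139380510-139380538, plus strand) and Socs3 (chr11:117969502-117969530, minus strand), and the gene Pde4b, which kept its response, has a match as well, upstream of a start within the gene (chr4:102569810-102570059, plus strand). They are shown to set a match of each kind of response side by side.

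Gpr146: taagcaccggTTCCAAGAAaagggcggag

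Socs3: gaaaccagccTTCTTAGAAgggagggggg

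Pde4b: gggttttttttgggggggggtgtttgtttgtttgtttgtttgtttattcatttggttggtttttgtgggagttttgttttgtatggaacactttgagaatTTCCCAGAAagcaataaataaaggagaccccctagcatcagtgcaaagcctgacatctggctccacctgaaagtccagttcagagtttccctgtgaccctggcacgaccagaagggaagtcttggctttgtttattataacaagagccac

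The difference between the genotypes with 4T1 CM was not used to define the classes, although the 4T1 CM libraries come from the same 5 mice and entered the filter, the mouse terms and the spread of the fit behind them. Nor is 4T1 CM a stimulus free of GM-CSF. The study measured GM-CSF in this medium, and neutralizing it with an antibody lowered phosphorylated STAT5 in BMDMs. The part of GM-CSF in the differences below was not tested. With 4T1 CM, 446 of all tested genes were lower (3.43%) and 522 higher (4.01%) in the STAT5 cKO libraries. Of the 327 STAT5-dependent induced genes, 147 were lower (45%) and 12 higher (3.67%), with a median difference of -0.35 on the log2 scale. Of the 138 STAT5-dependent repressed genes, 45 were higher (32.6%) and 2 lower, with a median of 0.25. Induced genes that kept their response to GM-CSF were lower in 44 cases (4.22%) and higher in 71 (6.81%), and repressed ones lower in 9 and higher in 53 (8.01%). Of the 45 inductions that were larger in STAT5 cKO, 22 were higher with 4T1 CM (48.9%), and of the 15 such repressions, 8 were lower (53.3%). These are differences between genotypes within 4T1 CM, from which differences already present with DMEM were not subtracted. The median of the 15 repressions was -0.48 with 4T1 CM and -0.24 with DMEM. For the 45 inductions these medians were 0.293 and -0.015.

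Single genes behaved differently with 4T1 CM. Cish (-4.13, adjusted p = 1.43e-13), Pgf (-3.27), Socs2 (-2.68) and Eps8 (-2.43) were lower in STAT5 cKO with 4T1 CM, and Bcl6 was higher (2.78). Il4ra had 887 and 944 CPM with 4T1 CM in STAT5 fl/fl and 760, 899 and 857 in STAT5 cKO, ranges that overlap (-0.13, adjusted p = 0.296). For Dcun1d3 the difference was -0.12 and for Kcnj2 0.22, neither of them called. Nfil3, a STAT5-dependent induction with GM-CSF, was higher in STAT5 cKO with 4T1 CM (0.47, adjusted p = 0.00265).

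**Figure D5:**
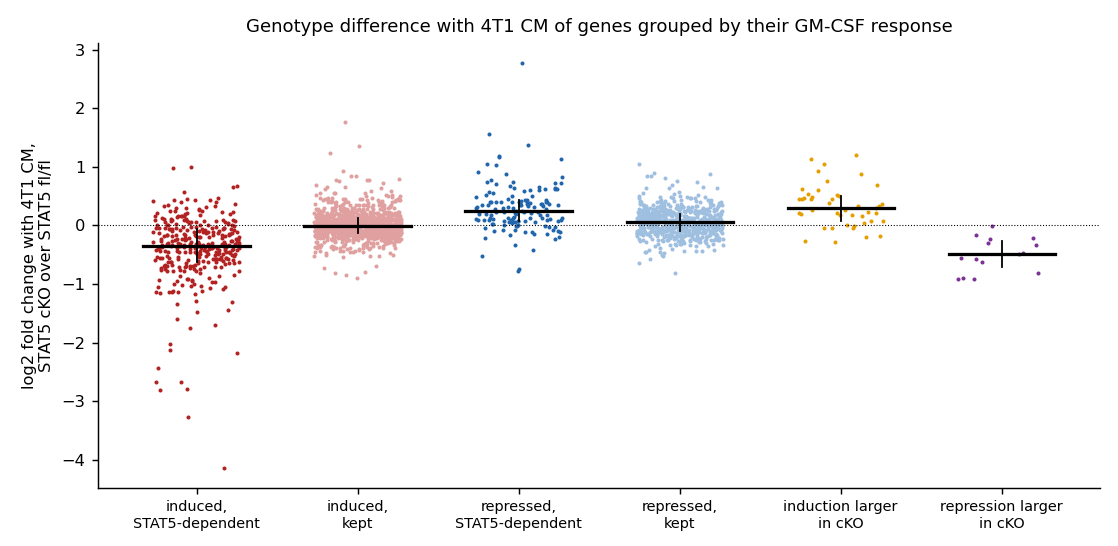
Log2 fold change between STAT5 cKO and STAT5 fl/fl with 4T1 CM (vertical axis) for genes grouped by their response to GM-CSF, with each point a gene, horizontal bars at the median and vertical bars over the quartiles. Medians lie at -0.35 for STAT5-dependent induced genes and 0.25 for STAT5-dependent repressed genes, and within 0.06 of 0 for genes that kept their response.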

How the data were processed

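RNA-seq counts of 15 BMDM libraries were used. According to the authors and the file header, the deposited counts were made with CHURP, which trimmed reads with Trimmomatic 0.33, aligned them with HISAT2 2.1.0 to GRCm38 and counted read pairs per Ensembl gene with featureCounts 1.6.2, on the reverse strand, for pairs of which both reads aligned with a quality score of 10 or more. Libraries were assigned to groups by the labels, and all columns were matched.

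From these counts, 13005 of 55385 genes with a CPM above 1 in at least 2 libraries were kept, as in the study's methods, with relative log expression normalization. Normalized CPM are counts scaled to the normalized library total. edgeR 4.0.16 in R 4.3.3 fitted 1 model with a term for each mouse and the treatments within each genotype to the 15 libraries, leaving 6 residual degrees of freedom. The quasi-likelihood F test gave the response in each genotype and the interaction, where the study used a generalized linear model of the same tool, and adjusted p-values are Benjamini-Hochberg values over all tested genes with a threshold of 0.01. Standard errors are the absolute log2 fold change divided by the root of F. Genotypes within DMEM and within 4T1 CM were compared in a fit of 6 groups without mouse terms. P-values rest on 2 and 3 mice. The code was tested on simulated data.

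The DMEM and GM-CSF libraries share mice, so that the mouse is the replicate block. Deviations from the group means correlated within a mouse at 0.169 to 0.213 across genes, and at most at -0.028 between mice. Deviations cancel out within a group, so positive values within mice force negative values between mice on average. The value between mice is therefore no separate comparison, and the need for the mouse block was not tested by it. In STAT5 fl/fl the deviations of the mice mirror each other, so both mice give the same 0.213.

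The gene lists and the classes were chosen with earlier results of these data known. Slc29a3 and C3ar1 were named for their rank next to the threshold, and Pgf and Eps8 were chosen after their values were seen. Besides these and the list members, the genes named were the deleted genes and those with responses apart in every mouse and the smallest interaction p-value. These were 10 STAT5-dependent induced and 10 repressed genes, 5 larger in STAT5 cKO in each direction and 5 with opposite calls, together with the 5 induced and 5 repressed kept genes with the largest STAT5 fl/fl change. Unnamed gene models were left out. Some genes that the rule or the lists hold are not reported here, though the counts include them. Promoter sequences are from RefSeq (GRCm38.p6). Alternatives were DESeq2 1.42.0, the likelihood ratio test, TMM normalization, edgeR's filterByExpr or no filter, no mouse block, the 10 libraries alone, a threshold of 0.05 and leaving out each mouse.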

Additional observations from a re-analysis of the deposited data

Results flagged for a closer look

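The response to GM-CSF differed between STAT5 fl/fl and STAT5 cKO BMDMs for 526 genes by the test of the interaction itself (edgeR's quasi-likelihood test, Benjamini-Hochberg adjusted p-value under 0.01). For 20 genes, led by Bcl6 and Gpr146, the change with GM-CSF was called in both genotypes and in opposite directions.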

How the results depend on the processing

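TMM normalization, filterByExpr, the likelihood ratio test and DESeq2 left the 6 counts (genes with a called interaction, STAT5-dependent induced and repressed genes, induced and repressed genes that kept their response, and responses larger in STAT5 cKO) within 1.5 times the reported ones. With no low-count filter, 209 repressed genes were STAT5-dependent and 97 responses were larger in STAT5 cKO. Without the replicate block, the interaction was called for 411 genes, and 284 induced and 87 repressed genes were STAT5-dependent, the last against 138. With the 10 libraries alone and the replicate block, 231 repressed genes were STAT5-dependent. At an adjusted p-value of 0.05 the interaction was called for 807 genes, 246 repressed genes were STAT5-dependent, 1034 repressed genes kept their response and 93 responses were larger in STAT5 cKO. The cause of these shifts was not tested.

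Leaving out 1 mouse at a time gave 216 to 450 called interactions, 167 to 295 STAT5-dependent induced and 33 to 114 repressed genes, 531 to 824 induced and 239 to 480 repressed genes that kept their response, and 16 to 43 responses larger in STAT5 cKO. The lowest values came without a STAT5 fl/fl mouse, when the lone mouse of that genotype is assumed to vary like the others. Of the genes chosen by rule, none changed the direction of its interaction where the reported or the alternative fit called it. Changes of sign between 2 fits that both left the interaction uncalled were not counted. March1, Irf4 and Rab11fip5 lost their call without a STAT5 fl/fl mouse, and Cxcr4 had a called interaction with no filter (0.35, adjusted p = 0.00556) and with 10 libraries (0.35, adjusted p = 0.00486). With 2 STAT5 fl/fl mice, small differences in response are not resolved, and genes with few counts, such as Ccl17, are tested with little precision.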
